A study of Mus musculus with 18 samples.

Results

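The comparison described here is FGF2 against no growth factor (-GFs) in ES/PA6 co-cultures, measured across the mouse transcriptome on Illumina bead arrays. It rests on 6 of the 18 arrays of the series, 3 treated with FGF2 and 3 without, and equal replicate numbers pair the arrays. A probe entered when its detection p was under 0.05 on 3 or more of the 6, which kept 20327 of 45281 probes and 14688 of 30854 gene names. The co-cultures are murine ES cells, of a line that carries EGFP in the tau locus, seeded on a monolayer of PA6, a stromal line from mouse bone marrow. All 6 wells were kept for 3 days in serum-free medium, and the treated wells received recombinant FGF2 at 20 ng/ml. For each biological replicate 1 well per condition was taken, and the error behind each p-value was estimated jointly from the replicate wells of all 6 groups of the series. The study asked which signals lead ES cells to endothelium in this system. PA6 cells alone, given the same 2 treatments, show the stromal response without ES cells and are set beside the co-cultures below. Their arrays also enter the normalization and the error estimate of every test. The series also holds co-cultures and PA6 cells given BMP4, at a labelled 10 ng/ml. These are not described here, but their arrays enter the normalization, the choice of probe and the error estimate as well.

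FGF2, or basic fibroblast growth factor, binds receptor tyrosine kinases and acts in many cells through the RAS and ERK kinase cascade. Mouse ES cells correspond to the naive epiblast of the blastocyst and hold that state with factors such as Nanog, Klf4, Esrrb and Tfcp2l1. On the way to differentiation they pass through a formative and then a primed epiblast state, in which those factors decline and Fgf5, Otx2, Pou3f1 and Dnmt3b come up, and ERK signalling is known as a driver of that passage. LIF, acting through STAT3, works the other way and holds the naive state.

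Between 19829 and 20412 probes were detected on the 6 arrays. After normalization, correlations across genes were 0.979 to 0.988 within a group and 0.961 to 0.98 between groups. The first principal component of the 6 arrays carried 44.9% of the variance and separated the 2 groups. All values below are log2 normalized intensities or differences of them, and differences are FGF2 minus -GFs. Markers of both labelled cell types were present. All 8 pluripotent cell markers and all 10 stromal cell markers were tested, and each was detected on at least 3 of the 6 arrays. The mean of the pluripotent markers was 12.28 to 12.69 on the -GFs arrays and 12.27 to 12.42 on the FGF2 arrays, so the groups overlap. That of the stromal markers was 11.57 to 11.96 without the factor and 11.24 to 11.41 with it, so every FGF2 array lay lower. Their summed signal on the linear scale ran from 68550 to 92640 and from 59310 to 77450. THY1, a surface glycoprotein of stromal cells, was the 1 stromal marker called, and it fell by 1.08 (SE 0.25, limma adjusted p = 0.0137). The median change of the 10 stromal markers was -0.41, and in PA6 cells alone it was -0.43. A difference between the culture types was called for 0 of them. None of the 5 trophoblast markers reached the detection limit on 3 arrays. In RNA from a mixed culture, fewer cells of a type and less RNA per cell cannot be told apart, and the part of this shift in the results below was not tested.

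**Figure D1:**
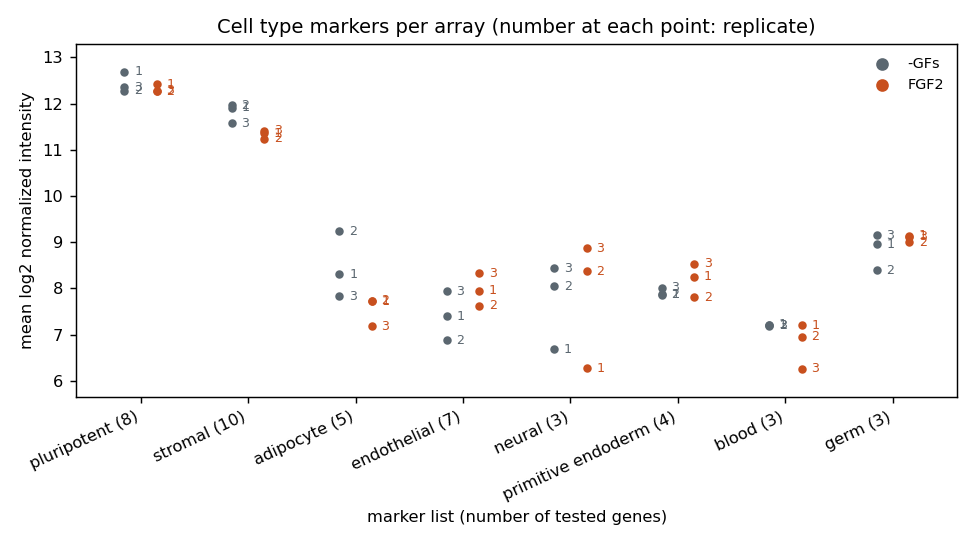
Mean log2 normalized intensity of the tested markers of 8 cell types on each of the 6 arrays. Grey points are -GFs arrays and orange points FGF2 arrays, with the replicate number beside each point. The 3 FGF2 arrays, at 11.24 to 11.41, lie below the 3 -GFs arrays, at 11.57 to 11.96, for the stromal markers, while the pluripotent markers overlap.

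With FGF2, 352 genes were called higher and 192 lower at a limma adjusted p under 0.1 and a change of more than 1 on the log2 scale. These 544 calls are 3.70% of the genes tested, with 2.40% called higher and 1.31% called lower. The median change over all genes was -0.01. In each of the 544 genes the 3 pairs of equal number differed in 1 direction, and in 285 every pair differed by more than 1. The 3 FGF2 arrays lay wholly beyond the 3 -GFs arrays in 473 of the called genes, against 20.2% of all genes tested. These pair and overlap counts come from the arrays that made the calls. They describe the called genes and give no separate support. Changes of more than 4-fold were balanced, with 34 genes in each direction. A further probe of the same gene was kept for 127 called genes, and in 123 of them every such probe had the same sign. Genes called higher had a median SD of 0.502 over the -GFs arrays and 0.377 over the FGF2 arrays, and genes called lower 0.345 and 0.334, against 0.21 and 0.209 over all genes. Leaving out 1 array at a time gave 425 to 658 calls, and leaving out both arrays of replicate 2 gave 380, with 222 called higher. A fit of the 9 co-culture arrays, with the BMP4 arrays among them and the PA6 arrays left out, gave 415. The 6 arrays of the comparison, normalized and fitted alone, gave 372, and 344 of the 544 were among them.

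**Figure D2:**
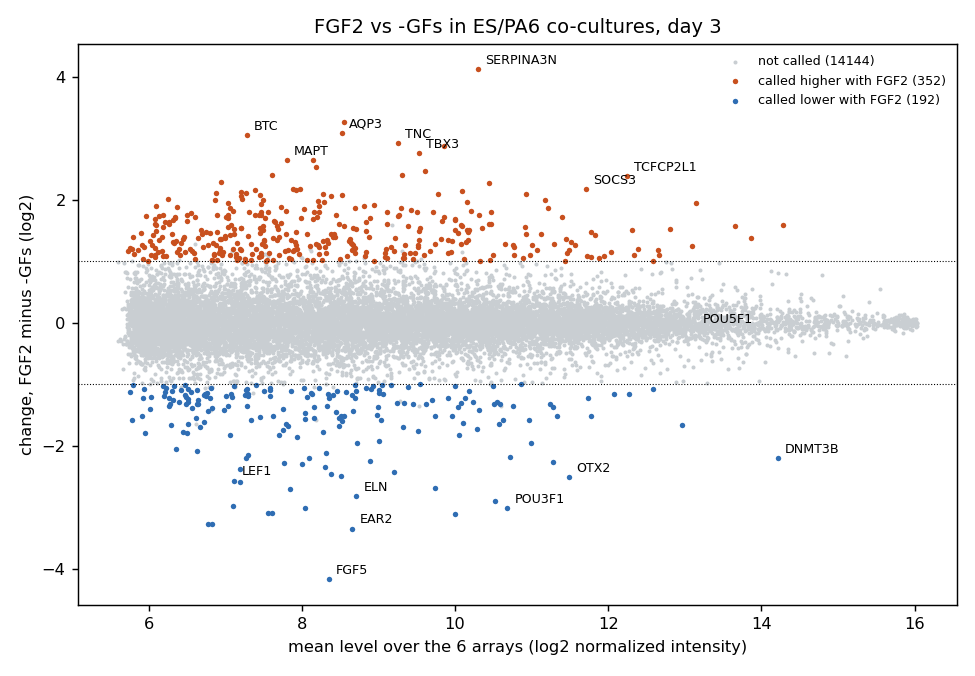
Change with FGF2 (log2, vertical axis) against the mean level over the 6 arrays (log2 normalized intensity, horizontal axis) of the 14688 genes tested. Orange points are the 352 genes called higher, blue points the 192 called lower and grey points the rest, and dotted lines mark changes of 1 in each direction. SERPINA3N and FGF5 lie at the extremes, and POU5F1 lies near 0.

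Genes of the naive state were higher with FGF2. Of 14 tested members of a list of naive pluripotency genes, 9 were called higher and none lower. In value 11 were higher and 3 lower, and the median change of the 14 was 1.29. TBX3, a T-box factor that sustains self-renewal, was at 8.53, 7.77 and 8.15 on the -GFs arrays and 11.14, 10.77 and 10.80 on the FGF2 arrays. The lowest FGF2 array thus stood above the highest -GFs array by more than 2 log2 units, and TBX3 rose by 2.75 (SE 0.21, limma adjusted p = 9.52e-07), although a further probe of the gene gave 1.41. TCFCP2L1, the array name of Tfcp2l1, a factor downstream of LIF, was at 11.26, 10.09 and 11.82 on the -GFs arrays and 13.17, 13.32 and 13.81 on the FGF2 arrays. It rose by 2.38 (SE 0.34, limma adjusted p = 0.000357), with the -GFs arrays spread over more than 1 unit and the FGF2 arrays close together. KLF4, a zinc-finger factor that can replace LIF when forced on, was at 9.86, 9.29 and 9.55 on the -GFs arrays and 11.76, 11.005 and 11.34 on the FGF2 arrays. No FGF2 array reached down to the -GFs range, and KLF4 rose by 1.80 (SE 0.24, limma adjusted p = 0.000221).

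The other naive genes called higher changed less. ESRRB, an orphan nuclear receptor and partner of Nanog, was at 13.20, 12.17 and 13.25 on the -GFs arrays and 14.50, 14.34 and 14.50 on the FGF2 arrays and rose by 1.58 (SE 0.23, limma adjusted p = 0.000479). KLF5 rose by 1.52, TCL1, a coactivator of the AKT kinase, by 1.56, and NR5A2, a nuclear receptor able to switch on Oct4, by 1.34. In these 4 genes the groups did not overlap, and the call held without any 1 array. NANOG, a homeobox factor central to self-renewal, was at 12.84, 11.83 and 12.74 on the -GFs arrays and 13.84, 13.29 and 14.02 on the FGF2 arrays, and ZFP42, or Rex1, a standard marker of naive ES cells, was at 12.25, 11.61 and 12.30 on the -GFs arrays and 13.41, 13.37 and 12.95 on the FGF2 arrays. NANOG rose by 1.25 (SE 0.34, limma adjusted p = 0.0309) and ZFP42 by 1.19 (SE 0.34, limma adjusted p = 0.044). Both calls depended on single arrays: without -GFs replicate 2 the changes were 0.93 and 0.97 with adjusted p of 0.157 and 0.185, without FGF2 replicate 1 the adjusted p were 0.11 and 0.149, and without FGF2 replicate 2 that of ZFP42 was 0.116. Over all alternatives the adjusted p ran from 0.000368 to 0.157 for NANOG and from 0.00239 to 0.315 for ZFP42.

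Not every naive gene moved. KLF2, at 12.02, 11.54 and 11.95 on the -GFs arrays and 12.74, 12.75 and 12.36 on the FGF2 arrays, was higher on every FGF2 array by a difference of 0.78 (SE 0.16, limma adjusted p = 0.00629), which is short of the fold threshold, and TDH, a threonine catabolic enzyme of mouse ES cells, differed by 0.65 (SE 0.17, limma adjusted p = 0.0251). DPPA3, or Stella, differed by -0.03, GBX2 by -0.09 and FGF4 by -0.22, and their groups overlapped. The list counted 7 members higher without -GFs replicate 2, without FGF2 replicate 1 and without both arrays of replicate 2, and 8 or 9 without any other array.

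Genes of the formative and primed epiblast went the other way. Of 10 tested members, 9 were called lower and none higher, with a median change of -2.36 over the 10. SOX3, at 6.48, 7.91 and 7.16 on the -GFs arrays and 5.68, 6.72 and 6.78 on the FGF2 arrays, differed by -0.79 (SE 0.31, limma adjusted p = 0.162) without passing. FGF5, the growth factor that marks the early post-implantation epiblast, was at 10.48, 10.83 and 10.01 on the -GFs arrays and 6.02, 5.72 and 7.06 on the FGF2 arrays. It fell by 4.17 (SE 0.26, limma adjusted p = 1.83e-07), the largest fall of any gene called, and was detected on all 3 -GFs arrays and on 2 of the 3 FGF2 arrays. POU3F1, or Oct6, a POU factor of the epiblast and of early neural cells, was at 12.47, 12.55 and 11.54 on the -GFs arrays and 9.29, 9.44 and 8.79 on the FGF2 arrays and fell by 3.01 (SE 0.23, limma adjusted p = 9.52e-07). OTX2, a homeobox factor that directs Oct4 to new enhancers on leaving the naive state, was at 12.71, 12.85 and 12.68 on the -GFs arrays and 10.35, 9.86 and 10.49 on the FGF2 arrays. The 3 -GFs arrays of OTX2 lay within 0.2 of each other, and the fall was 2.51 (SE 0.15, limma adjusted p = 1.77e-07).

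DNMT3B, a de novo DNA methyltransferase, was at 15.30, 15.48 and 15.16 on the -GFs arrays and 13.07, 13.14 and 13.13 on the FGF2 arrays and was detected on all arrays. It fell by 2.20 (SE 0.12, limma adjusted p = 9.68e-08), and a further probe gave -2.98. LEF1, a nuclear partner of beta-catenin, was at 8.78, 8.54 and 7.88 on the -GFs arrays and 5.79, 6.08 and 5.62 on the FGF2 arrays. It fell by 2.57 (SE 0.21, limma adjusted p = 1.64e-06). No LEF1 probe was detected on more than 4 of the 6 arrays, so that size is approximate. 7420416P09RIK, now named Vrtn, was at 8.23, 9.11 and 8.01 on the -GFs arrays and 5.22, 5.31 and 5.04 on the FGF2 arrays and was not detected on any FGF2 array, so its fall is given as at least 5.98-fold (limma adjusted p = 9.23e-07). FGF15, an FGF ligand of the epiblast and neuroectoderm, fell by 2.20 (SE 0.30, limma adjusted p = 0.000305), and ZIC2, a zinc-finger factor, by 1.65 (SE 0.21, limma adjusted p = 0.000146), although a further probe of ZIC2 gave -0.50. WNT8A, a WNT ligand, fell by 1.62 (SE 0.42, limma adjusted p = 0.0267), but its adjusted p was 0.113 without -GFs replicate 1 and 0.135 without FGF2 replicate 1, within a range of 0.0125 to 0.344 over all alternatives. Leaving out any 1 array left 8 or 9 members called lower.

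**Figure D3:**
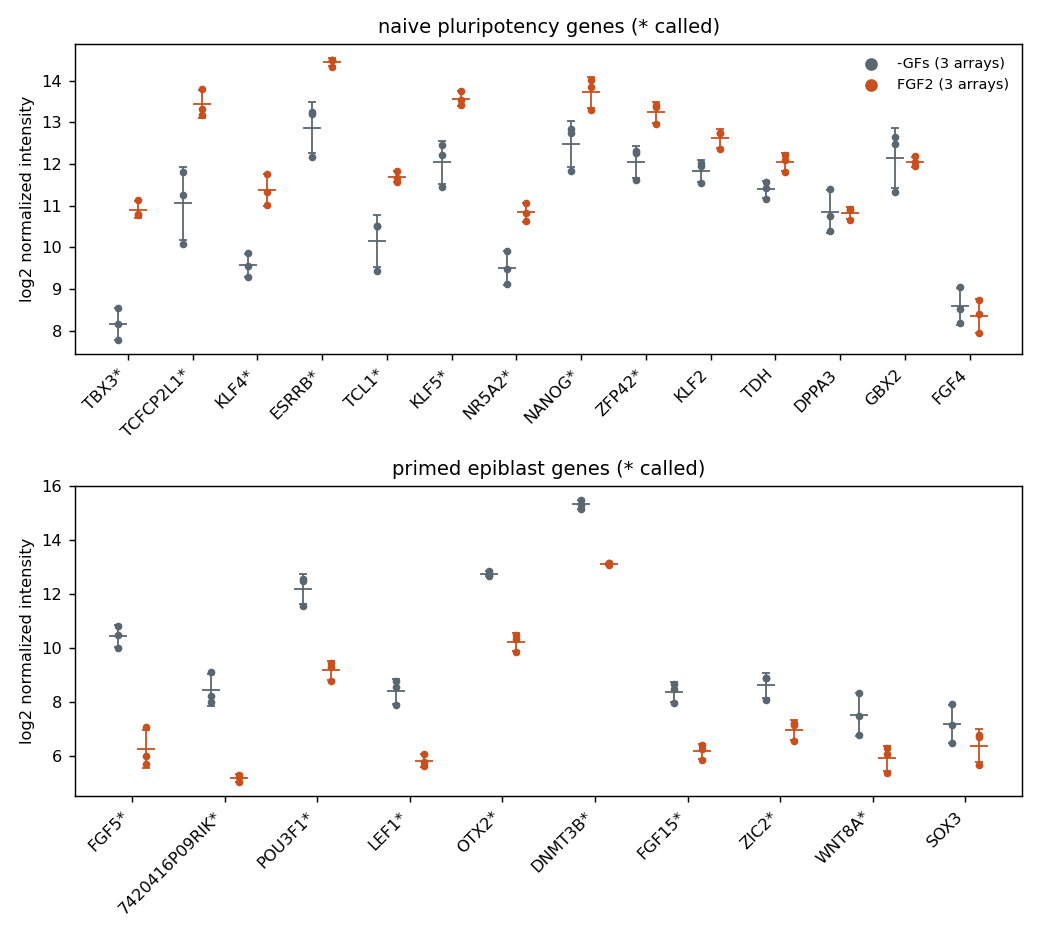
Log2 normalized intensity of the 14 tested naive pluripotency genes and the 10 tested primed epiblast genes on the 3 -GFs arrays (grey) and the 3 FGF2 arrays (orange), with a bar at the mean and error bars of 1 SD. An asterisk marks a called gene. The 9 called naive genes lie higher with FGF2 and the 9 called primed genes lower, DNMT3B from about 15 to about 13.

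The promoters of 6 genes are shown as examples of called members of the naive and primed lists and, for Socs3, of the LIF and STAT3 list described below. They were chosen after their values were seen, from genes with a single listed start in the promoter table, and are not the largest changes of each list. Each run holds the 250 bases before the transcription start listed by RefSeq for build GRCm38.p6, read 5′ to 3′ on the gene's own strand. Capitals mark matches, on either strand, to TTCNNNGAA, a palindrome bound by STAT factors, to ATTTGCAT, the octamer bound by POU factors such as Oct4, and to GGGCGG, the GC box bound by SP and KLF factors. Fgf5 (chr5:98253934-98254183, plus strand) and Dnmt3b (chr2:153649199-153649448, plus strand) fell. Klf4 (chr4:55532476-55532725, minus strand), Tfcp2l1 (chr1:118627695-118627944, plus strand), Zfp42 (chr8:43307010-43307259, minus strand) and Socs3 (chr11:117969367-117969616, minus strand) rose.
Fgf5: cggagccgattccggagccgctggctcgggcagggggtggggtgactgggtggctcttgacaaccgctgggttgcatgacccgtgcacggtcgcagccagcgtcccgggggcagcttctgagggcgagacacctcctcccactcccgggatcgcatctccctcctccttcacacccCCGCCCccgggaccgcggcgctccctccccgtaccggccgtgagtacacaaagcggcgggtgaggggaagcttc
Dnmt3b: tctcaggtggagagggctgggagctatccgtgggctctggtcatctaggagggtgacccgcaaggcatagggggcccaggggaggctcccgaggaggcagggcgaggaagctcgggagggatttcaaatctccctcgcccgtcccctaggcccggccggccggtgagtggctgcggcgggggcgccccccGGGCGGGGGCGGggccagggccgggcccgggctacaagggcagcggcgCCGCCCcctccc
Klf4: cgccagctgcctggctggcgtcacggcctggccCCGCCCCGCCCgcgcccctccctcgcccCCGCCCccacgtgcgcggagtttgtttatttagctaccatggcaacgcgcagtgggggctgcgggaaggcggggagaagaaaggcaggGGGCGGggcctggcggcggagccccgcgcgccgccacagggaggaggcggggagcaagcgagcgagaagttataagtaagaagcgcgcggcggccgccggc
Tfcp2l1: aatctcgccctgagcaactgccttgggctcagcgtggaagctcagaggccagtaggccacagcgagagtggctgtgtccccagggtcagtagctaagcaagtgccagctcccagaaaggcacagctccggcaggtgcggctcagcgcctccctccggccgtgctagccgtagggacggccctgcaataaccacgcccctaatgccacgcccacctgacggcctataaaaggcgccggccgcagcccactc
Zfp42: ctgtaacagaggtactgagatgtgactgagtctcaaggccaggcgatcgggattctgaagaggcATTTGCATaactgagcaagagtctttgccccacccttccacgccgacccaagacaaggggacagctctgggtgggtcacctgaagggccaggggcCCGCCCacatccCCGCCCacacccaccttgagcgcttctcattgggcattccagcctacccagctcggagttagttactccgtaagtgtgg
Socs3: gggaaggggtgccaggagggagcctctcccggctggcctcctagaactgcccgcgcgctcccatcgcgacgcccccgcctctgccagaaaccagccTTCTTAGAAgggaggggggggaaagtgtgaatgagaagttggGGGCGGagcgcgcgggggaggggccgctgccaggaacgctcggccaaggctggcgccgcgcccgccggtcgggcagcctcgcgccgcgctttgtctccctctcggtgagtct

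The Socs3 window held 1 match to the STAT letters, 154 to 146 bases before the start, and the other 5 windows held none. The Zfp42 window held the octamer 186 to 179 bases before the start, and it was the 1 window of the 6 with that motif. GC boxes stood in every window but that of Tfcp2l1, and 2 of the 4 in Klf4 share a base. Over the upstream windows of 27025 genes, 8.13% held the STAT letters, 1.81% the octamer and 35.4% a GC box. Among 187 genes called higher that had a window the shares were 7.49%, 4.28% and 48.7%, and among 111 called lower 9.01%, 4.5% and 51.4%, against 7.09%, 1.61% and 63.7% of the 9092 genes tested. The octamer shares rest on 8 and 5 genes. Such matches describe letters in these windows.

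The shared core of pluripotency differed less. POU5F1, or Oct4, was at 13.33, 12.999 and 13.26 on the -GFs arrays and 13.18, 13.03 and 13.07 on the FGF2 arrays, and the groups overlapped with a difference of -0.10 (SE 0.15, limma adjusted p = 0.803). SOX2 differed by 0.45 (SE 0.20, limma adjusted p = 0.219). Of the 8 tested members of the core list, LIN28 alone was called: this RNA-binding protein, which blocks maturation of let-7 miRNAs, was at 11.11, 11.16 and 10.50 on the -GFs arrays and 8.99, 9.58 and 9.30 on the FGF2 arrays and fell by 1.63 (SE 0.17, limma adjusted p = 1.99e-05). UTF1, a chromatin protein of ES cells, was lower on every FGF2 array by -0.73 (SE 0.14, limma adjusted p = 0.00408), short of the fold threshold. In the NODAL list 1 of 5 members was called, LEFTY1, a secreted inhibitor and target of NODAL, which fell by 1.41 (SE 0.28, limma adjusted p = 0.00514), while NODAL itself differed by 0.14.

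The lineage lists held 0 or 1 call each, where 3.70% of all genes tested were called. Of 8 tested genes of the primitive streak and mesoderm, GSC, an organizer homeobox factor, was the 1 called. GSC was at 6.32, 5.46 and 7.53 on the -GFs arrays and 7.84, 7.73 and 8.38 on the FGF2 arrays, detected on 2 -GFs arrays and all FGF2 arrays, and rose by 1.54 (SE 0.37, limma adjusted p = 0.0164), but it was not called when the 6 arrays were normalized and fitted alone (adjusted p = 0.191, in a range from 0.00024 over all alternatives). T, or Brachyury, differed by 0.39 (SE 0.43, limma adjusted p = 0.708). Of 7 tested early neural genes, DLL1, a Notch ligand, was at 8.57, 9.06 and 8.22 on the -GFs arrays and 6.15, 6.91 and 7.32 on the FGF2 arrays and fell by 1.83 (SE 0.29, limma adjusted p = 0.000822), and 8 further members of the list did not reach the detection limit on 3 arrays. Of 13 tested endothelial genes, VWF, the von Willebrand factor, was at 6.79, 5.95 and 6.98 on the -GFs arrays and 8.62, 7.68 and 8.80 on the FGF2 arrays and rose by 1.80 (SE 0.35, limma adjusted p = 0.00455). Of the 13 endothelial genes, 10 were higher in value and 3 lower, with a median of 0.61. In 5 of them every FGF2 array lay above the -GFs arrays, against 10.5% of all genes, and in 1 every FGF2 array lay below, against 9.77%. PECAM1 differed by 0.98 (SE 0.31, limma adjusted p = 0.0677) and CD34 by 0.98 (SE 0.37, limma adjusted p = 0.137). CDH5, or VE-cadherin, differed by 0.23, and KDR, a VEGF receptor, by -0.21. By limma 0 of the 7 tested epithelial genes were called and 3 had an unadjusted p under 0.05, with a median of -0.13, while KRT18 was called lower without -GFs replicate 1 or without FGF2 replicate 3.

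The largest rises outside these lists are given next, chosen among called genes whose groups did not overlap. SERPINA3N, a secreted protease inhibitor, was at 9.77, 7.88 and 7.07 on the -GFs arrays and 12.98, 12.50 and 11.58 on the FGF2 arrays and rose by 4.11 (SE 0.54, limma adjusted p = 0.000193). AQP3, a channel for water and glycerol, was at 7.89, 6.26 and 6.77 on the -GFs arrays and 10.70, 10.01 and 9.49 on the FGF2 arrays and rose by 3.09 (SE 0.37, limma adjusted p = 7.38e-05). BTC, or betacellulin, a ligand of the EGF receptor, was at 6.27, 5.51 and 5.50 on the -GFs arrays and 9.44, 8.79 and 8.19 on the FGF2 arrays, and it was detected on 1 -GFs array and on all FGF2 arrays. BTC rose by 3.04 (SE 0.29, limma adjusted p = 8.26e-06) and was the 1 call among 6 tested genes of the EGF family. TNC, the matrix protein tenascin-C, rose by 2.92 (SE 0.40, limma adjusted p = 0.000304), while its further probes gave 0.22, 1.29 and 2.68. IL33, a cytokine of the interleukin-1 family, rose by 2.87 (SE 0.38, limma adjusted p = 0.000205), and ANGPTL2, an angiopoietin-like secreted protein, by 2.65 (SE 0.26, limma adjusted p = 1.07e-05).

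Further rises in that order were 2310046K01RIK, now named Slc52a3, a riboflavin transporter, at 2.54, PRKG2, a cGMP-dependent kinase, at 2.46, SEMA7A, a membrane-anchored semaphorin, at 2.40, and ACPP, an acid phosphatase, at 2.29, on the log2 scale. LOC100046802 and LOC100046049, which had no current symbol in the annotation used, rose by 3.26 and 2.40. MAPT encodes the microtubule protein tau, the locus that carries EGFP in this ES line. MAPT was at 6.61, 5.98 and 6.85 on the -GFs arrays and 9.31, 9.23 and 8.82 on the FGF2 arrays and rose by 2.64 (SE 0.20, limma adjusted p = 9.52e-07), and where its probe lies relative to the insert was not analysed here.

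The largest falls after FGF5 were chosen in the same way. EAR2, an eosinophil-associated ribonuclease, was at 9.34, 10.90 and 10.76 on the -GFs arrays and 6.55, 7.61 and 6.79 on the FGF2 arrays and fell by 3.35 (SE 0.57, limma adjusted p = 0.00157), while its further probes gave -1.72 to -3.22. EAR3 fell by 3.01 (SE 0.42, limma adjusted p = 0.000357). EAR4, detected on 4 of the 6 arrays, fell by 2.98 (SE 0.42, limma adjusted p = 0.000361). EAR10, not detected on any FGF2 array, fell at least 1.74-fold (limma adjusted p = 0.00501). These 4 were all the members of the family that were tested, with a median of -2.99, and the family was listed after these values were seen. Its genes are near-identical copies, so probes of 1 may read others and the 4 falls may not be separate. GRM6, a metabotropic glutamate receptor, was at 8.96, 8.91 and 7.35 on the -GFs arrays and 5.21, 5.13 and 5.08 on the FGF2 arrays and was not detected on any FGF2 array, a fall of at least 5.79-fold (limma adjusted p = 8.66e-06). INMT, an N-methyltransferase, was at 12.12, 11.87 and 10.66 on the -GFs arrays and 9.17, 8.61 and 7.53 on the FGF2 arrays and fell by 3.12 (SE 0.44, limma adjusted p = 0.000368).

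PIM2, a serine/threonine kinase, was at 9.35, 9.42 and 8.54 on the -GFs arrays and 5.95, 5.70 and 6.36 on the FGF2 arrays and fell by 3.10 (SE 0.29, limma adjusted p = 6.33e-06). 1500015O10RIK, now named Ecrg4, a secreted peptide precursor, fell by 2.90 (SE 0.23, limma adjusted p = 1.01e-06). ENTPD2, which hydrolyses extracellular ATP, fell by 2.70, CAR4, a membrane-bound carbonic anhydrase, by 2.68, and TMEM54, a membrane protein, by 2.59. LOC672498, with no current symbol, fell by 3.09.

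A set of genes known from the 2-cell embryo, and switched on for short times in a small share of ES cells, was also higher. The set was listed after its members had been seen among the calls, so its count is a description: 10 of 17 members were tested, 9 were called higher and the median was 1.68. ZSCAN4C, a telomere-associated zinc-finger protein, was at 11.64, 10.96 and 10.22 on the -GFs arrays and 12.62, 12.61 and 11.37 on the FGF2 arrays, and the highest -GFs array exceeded the lowest FGF2 array. ZSCAN4C rose by 1.26 (SE 0.34, limma adjusted p = 0.0307). Its adjusted p was 0.137 without -GFs replicate 3, 0.148 without FGF2 replicate 1 and 0.119 without FGF2 replicate 2, in a range from 0.00162 to 0.234 over all alternatives. D13ERTD608E was at 7.31, 6.89 and 5.30 on the -GFs arrays and 8.86, 8.81 and 7.63 on the FGF2 arrays and rose by 1.94 (SE 0.41, limma adjusted p = 0.00755), while TMEM92 was at 10.06, 9.55 and 8.30 on the -GFs arrays and 11.71, 11.53 and 10.13 on the FGF2 arrays and rose by 1.82 (SE 0.42, limma adjusted p = 0.0123). In these genes replicate 3 was the lowest of the 3 in each group, and the pairs of equal number differed in 1 direction. TCSTV1, TCSTV3, TDPOZ2, TDPOZ4, AF067063 and BB287469 rose by 1.44 to 1.89, and TDPOZ1 differed by 0.27 (SE 0.29, limma adjusted p = 0.695). Members such as the Tdpoz, Tcstv and Zscan4 genes have near-identical copies, so probes of 1 may read others, which was not checked. The 9 calls should not be counted as 9 separate measurements. The call depended on the fit: 0 of 10 were called when the 6 arrays were normalized and fitted alone by limma, although 9 had an unadjusted p under 0.05, while 9 were called when the replicate block was added to that fit, 6 when the PA6 arrays were left out of the fit, and 4 without both arrays of replicate 2.

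Members of the signalling pathways were mostly below the call. In the list of ERK feedback and early FGF response genes limma called 0 of 11 tested members, 1 of them with an unadjusted p under 0.05, and the median was 0.28. In value 10 were higher and 1 was lower, or 7 and 4 without -GFs replicate 3. DUSP6, the phosphatase that ERK induces against itself, was at 12.38, 12.41 and 12.28 on the -GFs arrays and 12.32, 12.32 and 12.45 on the FGF2 arrays and differed by 0.01 (SE 0.19, limma adjusted p = 0.991). ETV5, an ETS factor downstream of FGF, differed by -0.13 (SE 0.18, limma adjusted p = 0.77), PHLDA1 by 0.41 and IER3 by 0.29. ETV4 differed by 1.15 (SE 0.47, limma adjusted p = 0.177), and it was called higher with the replicate block, with a larger offset, without background correction, and when the 6 arrays were fitted alone or the PA6 arrays left out of the fit. Among 12 tested FGF ligands and receptors FGF5 and FGF15 were the 2 called, both lower. FGFR2 differed by -0.81 (SE 0.23, limma adjusted p = 0.0396) and FGFR1 by -0.35 (SE 0.24, limma adjusted p = 0.493).

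LIF and STAT3 genes had a median of 0.59 over 11 members, of which 2 were called higher and none lower. In value 9 were higher and 2 lower. SOCS3, the feedback inhibitor induced by STAT3, was at 10.80, 10.68 and 10.40 on the -GFs arrays and 12.74, 12.71 and 12.93 on the FGF2 arrays. Its groups lay more than 1.9 apart with little spread, and SOCS3 rose by 2.17 (SE 0.15, limma adjusted p = 2.86e-07). BCL3, a nuclear cofactor of NF-kB, was at 7.33, 7.91 and 6.77 on the -GFs arrays and 9.003, 9.07 and 9.11 on the FGF2 arrays and rose by 1.72 (SE 0.22, limma adjusted p = 0.000139). STAT3 differed by 0.57 (SE 0.21, limma adjusted p = 0.125), LIF by 0.76 (SE 0.33, limma adjusted p = 0.203) and its receptor LIFR by 0.58 (SE 0.27, limma adjusted p = 0.258).

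In the WNT list 1 of 16 tested members was called, FZD7, a WNT receptor of ES cells, at 11.38, 11.43 and 11.37 on the -GFs arrays and 9.44, 9.90 and 9.92 on the FGF2 arrays. It fell by 1.64 (SE 0.15, limma adjusted p = 6.19e-06), and FZD2 differed by -0.95 (SE 0.31, limma adjusted p = 0.0793). DLL1 was the 1 call among 10 Notch genes. In the TGF-beta list 2 of 17 were called higher: TGFBI, a matrix protein induced by TGF-beta, by 1.10 (SE 0.37, limma adjusted p = 0.089), and SNAI1, a repressor of E-cadherin, by 1.16 (SE 0.39, limma adjusted p = 0.0868). Neither call held without -GFs replicate 2 (adjusted p = 0.105 and 0.135), -GFs replicate 3 (0.34 and 0.294), FGF2 replicate 1 (0.264 and 0.281) or FGF2 replicate 2 (0.205 and 0.215), and over all alternatives the adjusted p ran from 0.018 to 0.34 for TGFBI and from 0.000735 to 0.294 for SNAI1. The ligand TGFB1, detected on all 6 arrays, was tested and not called. SKIL, a SMAD corepressor, was lower by -0.84 (SE 0.14, limma adjusted p = 0.0016), short of the fold threshold. Of 11 BMP genes limma called 0, with 3 at an unadjusted p under 0.05, while BMP7 was called higher under median scaling and without -GFs replicate 3. BMP4, a ligand, differed by 0.55 (SE 0.26, limma adjusted p = 0.255) and by 1.06 at a further probe, SMAD1 by 0.19, SMAD5 by 0.15 and BMPR1A by 0.21.

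Matrix genes had a median of -0.30 over 24 members, with 3 called lower and 1 called higher. Beside them the stromal markers were lower too, as given above, a shift whose part in these falls was not tested. ELN, or elastin, was at 8.84, 10.44 and 11.09 on the -GFs arrays and 6.72, 7.17 and 8.02 on the FGF2 arrays and fell by 2.82 (SE 0.45, limma adjusted p = 0.00094). THBS1, or thrombospondin-1, fell by 1.40 (SE 0.22, limma adjusted p = 0.00098). DPT, or dermatopontin, was not detected on any FGF2 array, with a fall of at least 1.7-fold (limma adjusted p = 0.0632) that failed without -GFs replicate 1 (adjusted p = 0.129), -GFs replicate 2 (0.244), FGF2 replicate 2 (0.172) or FGF2 replicate 3 (0.134), within 0.0133 to 0.422 over all alternatives. TNC was the 1 matrix gene called higher. LUM, or lumican, differed by -1.41 (SE 0.65, limma adjusted p = 0.243), and the fit with the replicate block called it. COL1A1 differed by -0.41 (SE 0.23, limma adjusted p = 0.376) and COL3A1 by -0.41.

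Proteases and their inhibitors had a median of 0.71, and 2 of 10 were called higher. MMP9, or gelatinase B, was at 7.25, 6.86 and 6.55 on the -GFs arrays and 9.27, 8.81 and 8.04 on the FGF2 arrays and rose by 1.82 (SE 0.28, limma adjusted p = 0.000782). TIMP1, which inhibits matrix metalloproteinases, was at 13.80, 13.53 and 13.14 on the -GFs arrays and 15.34, 15.28 and 14.63 on the FGF2 arrays and rose by 1.59 (SE 0.19, limma adjusted p = 7.38e-05). Of 8 contractile genes limma called 0, with 2 at an unadjusted p under 0.05 and a median of -0.71: ACTA2, the smooth muscle actin, differed by -0.97 (SE 0.73, limma adjusted p = 0.534). Within pairs ACTA2 differed by -0.90, -1.15 and -0.85, its further probes gave -1.14 to -1.27, and with the replicate block its limma adjusted p was 0.00152 (up to 0.949 over all alternatives), with the change still short of the fold threshold. That block put 5 of the 8 genes at an unadjusted p under 0.05. MYL9, at -1.28 (SE 0.58, limma adjusted p = 0.237), passed only in the fit with the replicate block or without -GFs replicate 1. Among 5 adipocyte genes ADIPOQ, or adiponectin, was at 8.03, 9.92 and 7.18 on the -GFs arrays and 6.65, 6.02 and 5.34 on the FGF2 arrays and fell by 2.37 (SE 0.66, limma adjusted p = 0.0373). That call failed without -GFs replicate 2, the brightest array for it, where the change was -1.60 (adjusted p = 0.184), and without FGF2 replicate 3 (adjusted p = 0.119, in a range from 0.00347 to 0.273 over all alternatives). The mean of the 5 adipocyte markers was 7.83 to 9.24 on the -GFs arrays and 7.18 to 7.73 on the FGF2 arrays, a shift whose part in the fall of ADIPOQ was not tested. Their median change was -0.30 in the co-cultures and -2.75 in PA6 cells alone, where 3 of the 5 were called lower. The difference between the culture types was called for 2, both positive.

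The acute-phase and immune lists held 0 to 2 calls each, where 3.70% of all genes tested were called. SERPINA3N was the 1 call of 8 acute-phase genes, whose median was -0.39. Beside IL33, IL1RL1, which encodes the IL33 receptor, was the other call of 8 chemokine and interleukin genes: it rose by 1.20 (SE 0.34, limma adjusted p = 0.0401), and the call failed without -GFs replicate 2 (adjusted p = 0.186), FGF2 replicate 1 (0.121) or FGF2 replicate 2 (0.143), in a range from 0.0254 to 0.393 over all alternatives. Of 7 interferon-response genes limma called 0, with 4 at an unadjusted p under 0.05, but IFIT3 and IGTP were called lower without FGF2 replicate 1, and IGTP without -GFs replicate 2. ACE, the angiotensin-converting enzyme, was at 6.16, 6.08 and 5.23 on the -GFs arrays and 8.47, 7.93 and 7.38 on the FGF2 arrays and rose by 2.10 (SE 0.27, limma adjusted p = 0.000148), as the 1 call among 4 tested angiotensin peptidase genes.

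Of 12 genes of glycolysis and hypoxia, 11 were lower in value, or 10 under median scaling, and 1 was called. By limma 8 had an unadjusted p under 0.05. In 8 every FGF2 array lay below the -GFs arrays, against 9.77% of all genes. In 1 every FGF2 array lay above, against 10.5%. EGLN3, a prolyl hydroxylase of hypoxia-inducible factor, was at 9.45, 8.97 and 9.54 on the -GFs arrays and 7.54, 7.41 and 7.96 on the FGF2 arrays and fell by 1.68 (SE 0.29, limma adjusted p = 0.00181). ENO1, a glycolytic enolase, differed by -0.55 (SE 0.14, limma adjusted p = 0.0245), and the list median was -0.41. In PA6 cells alone that median was 0.505, and 5 of the 12 genes had a called difference between the culture types, all negative. All 16 sterol and fatty acid genes were lower in value, or 15 under median scaling, where SCD1 was higher, and 14 to 16 with arrays left out. Limma called 0 of them, 5 had an unadjusted p under 0.05, and the median was -0.27. FDPS, which makes farnesyl diphosphate, was at 13.77, 13.90 and 14.02 on the -GFs arrays and 13.13, 13.58 and 13.74 on the FGF2 arrays, a difference of -0.41 (SE 0.18, limma adjusted p = 0.199). Of 23 cell cycle genes limma called 0, with 0 at an unadjusted p under 0.05 and a median of 0.02: CDC20 was at 13.70, 13.79 and 13.86 on the -GFs arrays and 13.66, 13.83 and 13.82 on the FGF2 arrays.

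**Figure D4:**
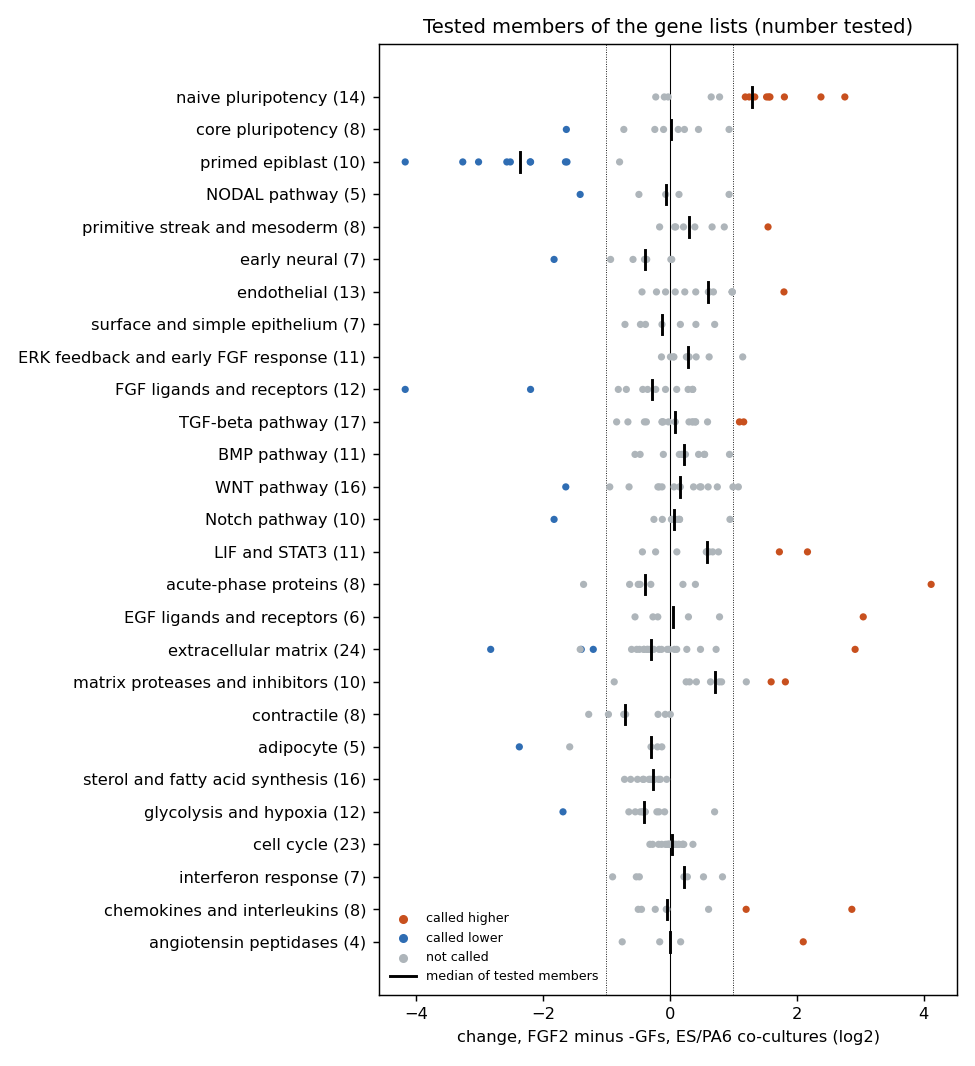
Change with FGF2 (log2, horizontal axis) of every tested member of 27 gene lists (vertical axis, number tested in brackets). Orange points are genes called higher, blue points genes called lower and grey points genes not called, with a black bar at the list's median and dotted lines at changes of 1. The naive pluripotency median is 1.29 and the primed epiblast median -2.36, while the sterol and cell cycle lists hold no call.

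The same treatment of PA6 cells alone was set beside the co-cultures in the same limma fit. The FGF2 effect differed between the culture types in 1050 genes, 7.15% of those tested, with 555 higher and 495 lower in the co-cultures. Among the 544 co-culture calls 347 had such a difference, and in 330 the co-culture change was the larger in its direction. No PA6 array detected 222 of the 352 genes called higher and 78 of the 192 called lower, which are 63.1% and 40.6%, against 13.2% of all genes tested. For such genes the PA6 change lies between background values, so a called difference shows only the co-culture change. Their pooled error also draws on PA6 arrays at background, where the spread can be small. For MAPT the SDs were 0.45 and 0.26 in the co-cultures and 0.07 and 0.01 in PA6 cells, without and with FGF2. Their p-values may thus be too small, and the part of this in the shares was not tested. Without the PA6 arrays in the fit 254 genes were called higher and 161 lower. In PA6 cells 707 of the genes tested (4.81%) were called, 2.60% higher and 2.21% lower. Of these 707, 90 were also called in the co-cultures in the same direction and 10 in the opposite one.

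Naive and primed genes were called in the co-cultures and not in PA6 cells. The difference was called for 9 of 14 naive genes, all higher, and for 8 of 10 primed genes, all lower, but 5 and 7 of these were detected on no PA6 array. TBX3 differed between the culture types by 2.35 (SE 0.30, limma adjusted p = 0.000159) and KLF4, which stood at -0.86 in PA6 cells, by 2.66 (SE 0.34, limma adjusted p = 0.000156). FGF5, with a change of 0.01 in PA6 cells, differed by -4.18 (SE 0.37, limma adjusted p = 6.06e-06), and OTX2 by -2.46 (SE 0.21, limma adjusted p = 6.06e-06), with both at background on every PA6 array. Of the 9 called 2-cell genes 7 had the difference called.

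Other lists had many calls in PA6 cells and few or none in the co-cultures. Co-culture RNA comes from ES and PA6 cells together. These differences therefore cannot separate a weaker stromal response from mixing with ES RNA, which was not tested. Of 16 sterol and fatty acid genes, with a median of 2.01 in PA6 cells, 14 were called higher there, and the difference was called for all 14. FDPS rose by 2.87 in PA6 cells and differed between the culture types by -3.28 (SE 0.25, limma adjusted p = 1.38e-06), and SQLE, the squalene epoxidase, by -2.41 (SE 0.29, limma adjusted p = 7.81e-05). Of 11 ERK feedback genes 6 were called higher and 1 lower in PA6 cells, and 5 had a called difference. DUSP6 rose by 2.39 in PA6 cells, a difference of -2.38 (SE 0.27, limma adjusted p = 5.55e-05), and ETV5 by 2.25, a difference of -2.39 (SE 0.25, limma adjusted p = 2.9e-05). Acute-phase genes had 6 of 8 called in PA6 cells, and 7 had a called difference: SAA3, or serum amyloid A3, changed by 4.49 there and by -1.36 in the co-cultures, a difference of -5.85 (SE 0.85, limma adjusted p = 0.000408), and the fit with the replicate block called it lower in the co-cultures. In the cell cycle list 6 of 23 were called higher in PA6 cells and 7 had a called difference.

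A further set moved alike in value in both. SOCS3 rose by 2.85 in PA6 cells and differed by -0.68 (SE 0.21, limma adjusted p = 0.0449), under the fold threshold for a call. BCL3 (1.88), MMP9 (2.01), TIMP1 (2.20) and TNC (2.38) rose in PA6 cells too, and INMT (-3.35), THBS1 (-1.86) and EAR2 (-2.30) fell. For these 7 genes the difference was not called, which does not show that the 2 responses are equal: that of TNC was 0.53 (SE 0.57, limma adjusted p = 0.625) and that of EAR2 -1.05 (SE 0.81, limma adjusted p = 0.471).

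**Figure D5:**
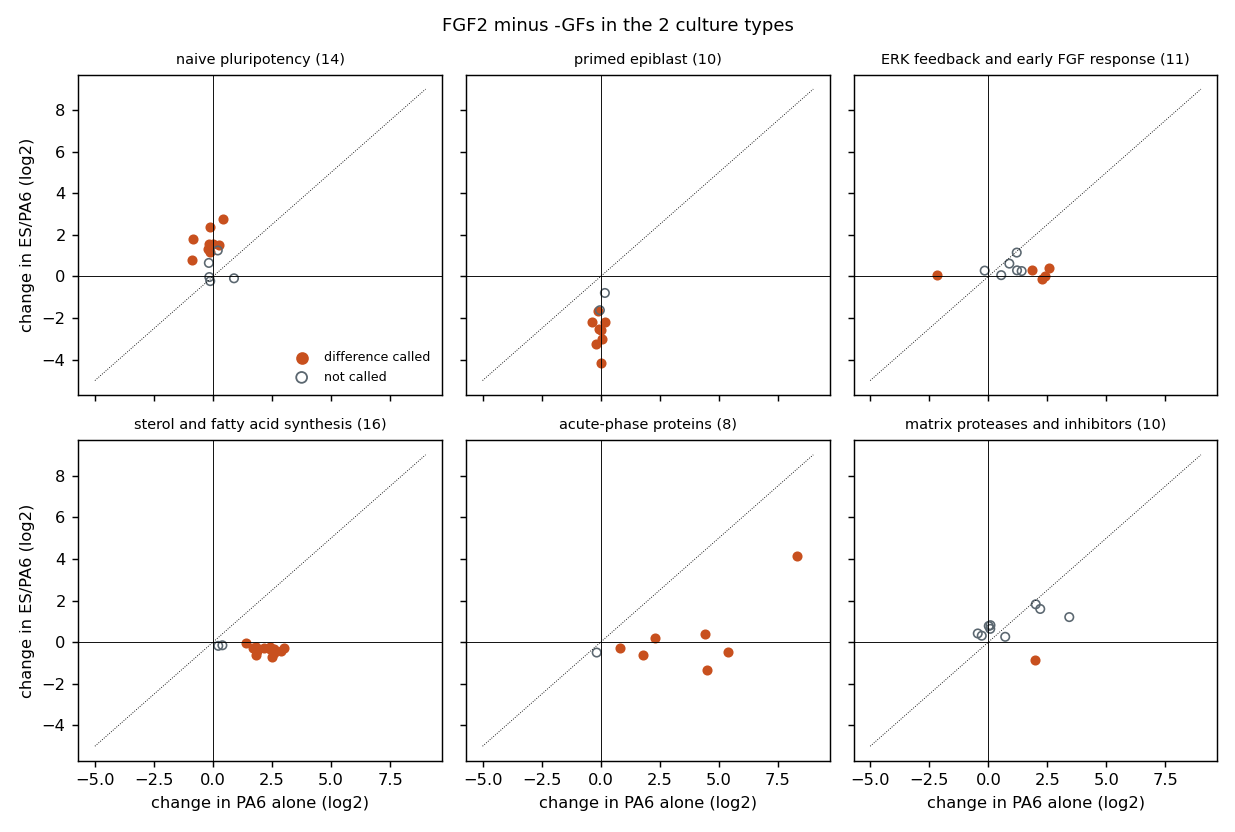
Change with FGF2 in ES/PA6 co-cultures (log2, vertical axis) against that in PA6 cells alone (log2, horizontal axis) for the tested members of 6 gene lists, with the number tested in brackets. Filled orange points are genes whose difference between the culture types was called and open points the rest, and the dotted line marks equal change. Primed genes lie down the vertical axis near 0 in PA6 cells, and 14 of 16 sterol genes lie to the right, from 1.38 to 3.02, near 0 in the co-cultures.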

How the data were processed

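RNA of 18 cultures was labelled with biotin and hybridised to Illumina mouse bead arrays, and the authors summarised the beads of each probe. What was deposited is the intensity before normalization, on a linear scale. A deposited detection p-value accompanies each. For 10 arrays that column was treated as a score in the deposited table, because 5 stray lines at its end put other numbers there, and these lines were left out. The submitters' processing notes name GenomeStudio 2011.01, whose cubic spline is not in these values and was an alternative. Groups, doses and replicate numbers came from the labels, and every column matched 1 sample.

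Arrays were background corrected and quantile normalized by neqc (offset 16) in limma 3.58.1 with R 4.3.3, which understates changes of dim genes. Where several probes of a gene were kept, the brightest over the 18 arrays was used. A single limma fit of 6 group means on all 18 arrays, with no replicate block, gave every comparison, and the difference of the FGF2 effect between culture types was an interaction contrast. Calls needed a Benjamini-Hochberg adjusted p under 0.1 over all genes and an absolute log2 change over 1, as in the study's methods. A permutation of 3 arrays against 3 cannot give a p below 0.1. The number of arrays limits the precision. The steps were tested on simulated data. A group in which no array detected a gene gives a bound, the bright group's mean against the mean of, per array, the higher of the lowest detected value and the gene's own.

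Once group means were removed, same-numbered arrays correlated at 0.346 to 0.551 and others at -0.454 to -0.0841, so the numbers pair the arrays. The genes named are the 15 largest rises and the 15 largest falls among called genes with groups apart, the called members of each list, and up to 4 of the brightest members where none was called. Other members named were chosen after their values were seen. The comparison and the lists were chosen with earlier results of these data known, and the 2-cell, ribonuclease and tau entries were added after the values were seen. Gene names are those of the array, and 12137 of 14688 matched a current symbol of the RefSeq annotation. Alternatives covered the normalization, offset, filter, probe, arrays in the fit, block, variance model, thresholds and left-out arrays.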

Additional observations from a re-analysis of the deposited data

Results flagged for a closer look

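The FGF2 effect differed between the co-cultures and PA6 cells alone in 1050 genes by the limma interaction contrast. Among the 30 genes with the largest changes in the co-cultures, 19 were of this kind. A higher fitted change in the co-cultures than in PA6 cells was found for LOC100046049 (a difference of 2.623), MAPT (2.593), 2310046K01RIK (2.562), TCFCP2L1 (2.489), TBX3 (2.35), AQP3 (1.95), ANGPTL2 (1.674) and BTC (1.23). SERPINA3N and IL33 rose in both culture types, and less in the co-cultures, with differences of -4.198 and -1.705. The co-culture RNA mixes ES and PA6 cells, and the part of that mixing in these 2 differences was not tested. A lower fitted change in the co-cultures was found for FGF5 (-4.178), PIM2 (-3.436), LOC672498 (-3.146), GRM6 (-3.139), 7420416P09RIK (-3.061), POU3F1 (-3.059), CAR4 (-2.722), TMEM54 (-2.595) and 1500015O10RIK (-1.714). All values are log2 differences of the FGF2 effect, co-cultures minus PA6 cells. No PA6 array detected 12 of the 19: LOC100046049, MAPT, 2310046K01RIK, TCFCP2L1, FGF5, PIM2, LOC672498, GRM6, 7420416P09RIK, POU3F1, CAR4 and TMEM54. Their PA6 effect lies between background values, so the difference shows only the co-culture change. GRM6 and 7420416P09RIK were also not detected on any FGF2 array of the co-cultures, so their fitted differences are no exact sizes.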

How the results depend on the processing

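Background correction and the fold threshold moved the counts most. Without background correction, quantile normalization gave 276 calls (177 higher, 99 lower) and the cubic spline 275 (176 and 99), of which 273 and 272 were among the 544, and the difference between culture types gave 652 and 649 calls. Without a fold threshold the counts were 1596 (929 and 667) and 2313 for the difference. The 6 arrays normalized and fitted alone gave 220 genes higher. Leaving out arrays gave 222 to 432 genes higher, the lowest without both arrays of replicate 2, 158 to 244 lower, 380 to 658 in all and 943 to 1171 for the difference. Median scaling moved the median of all genes from -0.01 to 0.07 and gave 399 genes higher and 169 lower.

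The replicate block gave 574 calls, which held all 544, with 368 higher and 206 lower. The calls it added among the genes described were ETV4, LUM, MYL9 and SAA3, and it ended none.

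Of 71 called genes chosen by the naming rule, 51 were called in every setting that tested them. Directions turned in 25 of 2556 values, all of them in genes not called. Median scaling gave 0.046 for CDC20 and 0.055 for SCD1, and array weights gave -0.020 for DUSP6. With arrays left out, CDC20 ran from -0.049 to 0.047, DUSP6 from -0.075 to 0.056, KRT8 from -0.39 to 0.16, MCM4 from -0.077 to 0.21, MCM5 from -0.012 to 0.064, OASL2 from -0.15 to 0.59, SCD1 from -0.16 to 0.11 and TPM2 from -0.14 to 0.17. Causes were not tested. With 3 arrays a group, dim genes have bounds only: 37 of the rises had no -GFs array above the detection limit, and 19 of the falls no FGF2 array.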

Other observations

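The pairs of equal number moved by unlike amounts. The median change of the genes called higher was 1.32 in pair 1, 1.67 in pair 2 and 1.25 in pair 3, and that of the genes called lower was -1.53, -1.52 and -1.22. Over all genes the median absolute pair difference was 0.235, 0.23 and 0.264. Among germ cell genes DAZL, an RNA-binding protein of the germ line, rose by 1.13 (SE 0.25, limma adjusted p = 0.0107), while DDX4, or Vasa, differed by -0.34 and DPPA3 by -0.03. Of the 544 calls, 225 lay in the dimmest of 3 equal bins of genes by level, 238 in the middle bin and 81 in the brightest.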
